A study of Mus musculus with 24 samples.

Results

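The core genes of microRNA production and microRNA-guided silencing were followed in mouse preleukemic cells with and without the terminal uridylyltransferases Tut4 and Tut7. The 10 genes (Drosha, Dgcr8, Xpo5, Dicer1, Tarbp2, Ago1, Ago2, Ago3, Tnrc6a and Tnrc6b) were taken from the deposited 3′UTR tables by matching each line's transcript accession to its gene, out of 20868 genes in all. The matching used no measured value, but the genes were chosen with earlier results of these data known. The cells were c-Kit-enriched, mid-gestation fetal liver cells transformed with retroviral Meis1 and Hoxa9, as both genotypes were, and grown with stem cell factor, IL-6 and IL-3. In the cDKO cells both floxed alleles of Tut4 and of Tut7 were combined with Vav-iCre, which is active in blood-forming cells from their earliest stages, while the control cells carried the floxed alleles without Cre. Cells of both genotypes took up 4-thiouridine (4SU), at 2.9 µM over 12 h, and were sampled at 0, 60, 180 and 540 min after a change to 4SU-free medium. Each of these 8 groups had 3 libraries. Incorporated 4SU is read as a T-to-C conversion after alkylation (SLAM-seq), so a library gives an abundance, from the reads on a 3′UTR, and a conversion rate, the percentage of sequenced T positions read as C. Per the methods the triplicates were biological replicates from separate animals or embryos, and the labels name each chase time as a batch, so that chase time and batch cannot be told apart.

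MicroRNAs are cut from long primary transcripts in the nucleus by the Microprocessor, in which the RNase III enzyme Drosha works with the RNA-binding protein Dgcr8, and the resulting hairpins leave the nucleus with Exportin-5 (Xpo5). In the cytoplasm Dicer1, with the double-stranded RNA-binding partner Tarbp2, cuts the hairpin to a duplex, and a strand of it is loaded into an Argonaute protein. The GW182 proteins, here Tnrc6a and Tnrc6b, bind Argonaute and bring in the poly(A)-binding protein and deadenylases that silence the target. Tut4 and Tut7 add uridines to the 3′ ends of microRNA precursors, mature microRNAs and mRNAs, and can act on precursors through Lin28.

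Libraries held 4380238 to 7041311 reads on annotated 3′UTRs (median 5321078). Tut4 lay at 68.1 to 105 CPM (reads of the gene per 1000000 3′UTR reads of the library) in the 12 control libraries and at 17.8 to 40.0 in the 12 cDKO libraries. Tut7 lay at 34.6 to 66.1 CPM and 16.7 to 33.3 CPM. Both fell on reads summed over the chase, by 1.53 and 1.10 in log2 units (SE 0.09 and 0.08, adjusted p = 8.79e-05 and 0.000186 by edgeR). Where the deleted exons lie was not given in the sources used here, so the remaining 3′UTR reads do not measure intact mRNA. The library-wide conversion rate at 0 min was 1.64% ± 0.0261 (SD, n = 3) in control and 0.736% ± 0.169 in cDKO, and the cDKO libraries of replicate 3 were the lowest of their genotype at every time.

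Sequencing depth differed widely between the 10 transcripts, and with it how small a difference each could show. Tnrc6a, Tnrc6b and Ago2 had 34172, 20810 and 20248 reads over the 24 libraries. Dicer1 had 8285 reads, Drosha 7581, Ago1 6303, Dgcr8 4605 and Tarbp2 4490. At the other end Xpo5 had 600 reads, 12 to 44 per library, on an annotated interval of only 28 bases, and Ago3 had 446 reads, 8 to 28 per library. All 10 passed the filter on low counts in every abundance comparison.

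The annotated mm10 3′UTR intervals were, on the plus strand, Drosha chr15:12935123-12935291, Xpo5 chr17:46242272-46242299, Tarbp2 chr15:102523343-102523676, Tnrc6a chr7:123192952-123195296 and Tnrc6b chr15:80929477-80941086. On the minus strand they were Dicer1 chr12:104687742-104691592, Dgcr8 chr16:18253964-18255521, Ago1 chr4:126435012-126439502, Ago2 chr15:73101625-73106907 and Ago3 chr4:126340678-126345473. The Dgcr8 interval overlaps the 3′UTR of Trmt2a on the opposite strand. None lies on chromosome 3, the chromosome whose genes stood apart in these libraries, with a median log2 change of -0.51 in cDKO over 526 genes, against -0.02 to 0.10 on the other chromosomes.

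Tarbp2 needs a separate reading. Of its reads 99.6% were counted as mapping to several places, against 9.68% of the reads of all genes, and only 17 reads were not. A search of the GRCm39 genome for the last 334 bases of the Tarbp2 transcript, which hold 91 T as in the file's interval, found 2 identical copies. The copy at chr15:102431778-102432111 (plus strand) is Tarbp2 itself, and that at chr6:47408720-47409053 (minus strand) lies in no annotated gene. Tarbp2 values below are therefore the sum of what both places produce.

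Over all reads, the abundance of this machinery in the cDKO cells stood close to control. With the 4 chase times summed per genotype and replicate number (3 against 3), 1 of the 10 genes passed the test, Tarbp2, against 30.6% of the 11204 genes tested. Tarbp2 was higher in cDKO by 0.41 (log2, SE 0.10, edgeR adjusted p = 0.0231). The estimates of the other 9 ran from -0.08 (Ago3) to 0.14 (Xpo5). The median absolute log2 change was 0.06 for the 10 genes and 0.23 for all genes tested. In a sum, changes of opposite sign at different times cancel. At 0, 60, 180 and 540 min alone it was 0.14, 0.13, 0.18 and 0.12 for the 10 genes. For all genes tested it was then 0.24, 0.25, 0.25 and 0.24. The 95% interval lay within a 1.5-fold change in either direction for 7 genes and reached beyond it for Tarbp2, Xpo5 and Ago3. The Tarbp2 call was lost without control replicate 1, 2 or 3 (adjusted p = 0.0878, 0.0619 and 0.0676) and with the filtered reads of each library as its size (0.0646).

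**Figure D1:**
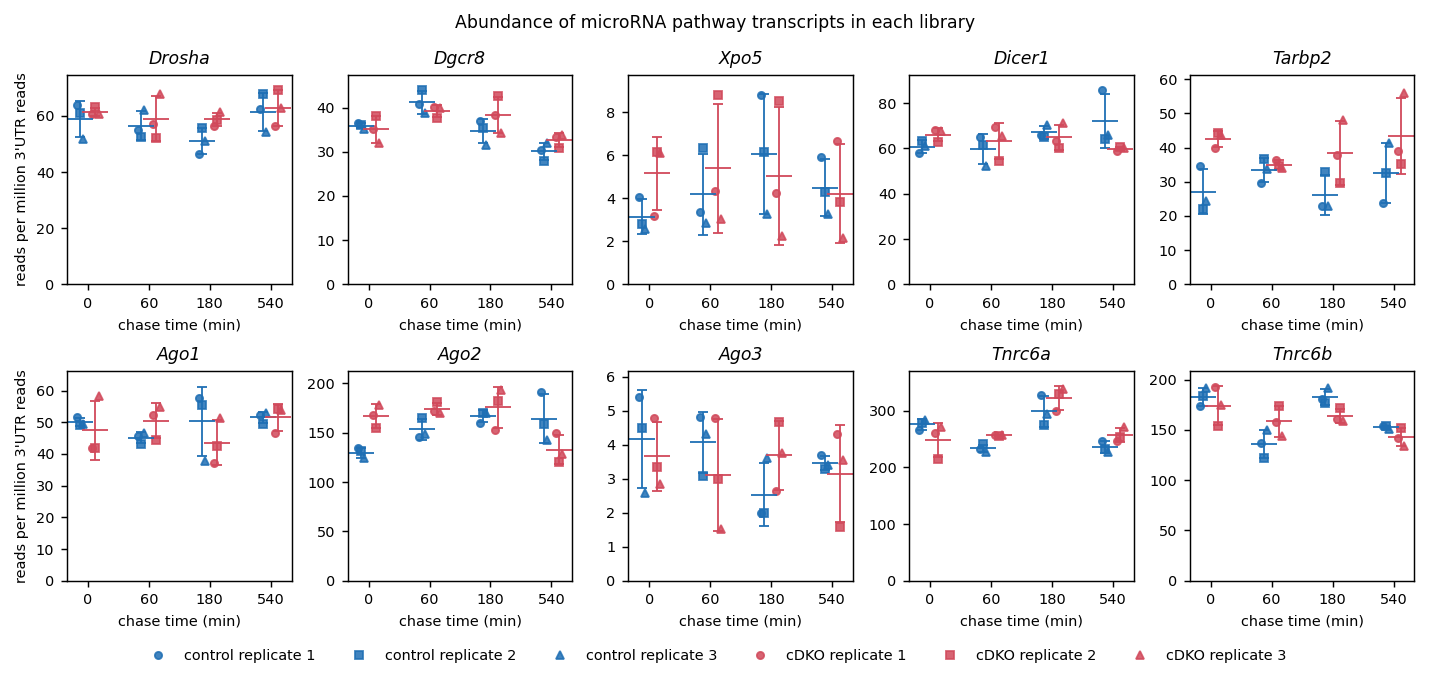
Abundance of the 10 transcripts in each of the 24 libraries, in CPM on a linear axis from 0, against chase time in min (spaced evenly); circles, squares and triangles are replicates 1, 2 and 3, and bars give the mean ± SD of 3 libraries. Control (blue) and cDKO (red) points overlap in most panels, while Ago2 at 0 min lies between 124 and 134 in control and between 154 and 178 in cDKO.

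The Microprocessor genes stood close to control at nearly every time. Drosha, the RNase III enzyme that makes the first cut, lay between 46.3 and 67.6 CPM in control and between 52.0 and 69.3 CPM in cDKO. Its cofactor Dgcr8 lay between 28.0 and 44.0 CPM and between 30.8 and 42.5 CPM. The summed log2 changes were 0.08 (95% interval -0.08 to 0.24, adjusted p = 0.413) for Drosha and 0.03 (-0.12 to 0.19, adjusted p = 0.713) for Dgcr8 by edgeR. Only at 180 min did the 2 genotypes separate for Drosha, with control libraries at 46.3, 55.6 and 51.2 CPM and cDKO libraries at 56.6, 58.4 and 61.3 CPM, and that difference of 0.18 on the log2 scale had an adjusted p of 0.33. Xpo5, the export receptor of the precursor hairpin, ranged from 2.58 to 8.82 CPM in control and from 2.14 to 8.79 CPM in cDKO. Its summed change of 0.14 carried an interval from -0.65 to 0.92, and its largest estimate at a single time was 0.74 at 0 min (adjusted p = 0.309).

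Dicer1, which cuts the hairpin, stood near control in the cDKO cells on summed reads. The estimates of its partner Tarbp2 were all above 0. Dicer1 lay at 52.3 to 85.7 CPM in control and at 54.3 to 71.0 CPM in cDKO, and its summed log2 change was -0.04 (95% interval -0.21 to 0.12, edgeR adjusted p = 0.667). The highest Dicer1 library of all was control replicate 1 at 540 min. At that time every cDKO library (59.0 to 60.6 CPM) lay below every control library (64.4 to 85.7 CPM). The mean ratio there was 0.83, and the difference was not called. For Tarbp2 at 0 min the control libraries were at 34.7, 22.2 and 24.4 CPM and the cDKO libraries at 39.7, 44.1 and 43.6 CPM, so every cDKO library lay above every control library. The mean ratio there was 1.57, the log2 change 0.67 (SE 0.19) and the edgeR adjusted p 0.0522. At 60 min the genotypes overlapped, with control at 29.7, 36.6 and 33.8 CPM and cDKO at 36.4, 34.6 and 34.1 CPM. The estimates were 0.54 at 180 min and 0.40 at 540 min (adjusted p = 0.115 and 0.275), again with overlapping libraries. The 0 min difference passed with DESeq2 (adjusted p = 0.0298), without control replicate 1 (0.0254) and without cDKO replicate 2 (0.0497), and at 180 min it passed without cDKO replicate 2 (0.0305).

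Ago2, the Argonaute that can itself cleave a target, was the only one of the 10 called at a single chase time. At 0 min its control libraries were at 134, 131 and 124 CPM and its cDKO libraries at 168, 154 and 178 CPM. The lowest cDKO library stood above the highest control library, the mean ratio was 1.29, and the log2 change was 0.38 (SE 0.10, edgeR adjusted p = 0.0318). That is 1 of 10 genes, against 13.4% of all genes tested at 0 min. The call was lost without control replicate 1, 2 or 3 (adjusted p = 0.0856, 0.133 and 0.15), without cDKO replicate 1 or 3 (0.0776 and 0.0545), with the replicate number as a block (0.0808) and with the filtered reads as library size (0.154). That last scaling moved the median of all genes from 0.01 to -0.15 at 0 min and turned 684 higher and 676 lower genes into 475 and 1175, and Ago2 then stood at 0.23.

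At the later times no member was called, against 20.2% of all genes at 60 min, 18.9% at 180 min and 19.2% at 540 min. DESeq2 called none either, and 0, 2 and 1 of the 10 had an unadjusted p under 0.05 (all genes 33.2%, 31.8% and 31.5%). For Ago2 at 60 min the control libraries were at 146, 165 and 149 CPM and the cDKO libraries at 172, 181 and 170.0 CPM, without overlap (log2 change 0.16, edgeR adjusted p = 0.183). At 180 min the 2 sets overlapped and the estimate was 0.06. At 540 min control libraries were at 191, 158 and 142 CPM and cDKO libraries at 149, 121 and 129 CPM, overlapping, with an estimate of -0.31 (adjusted p = 0.126, and 0.0388 when all 24 libraries shared a fit). The Ago2 difference thus had opposite signs at the start and at the end of the chase, and over the summed reads it came to 0.07 (95% interval -0.06 to 0.20).

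Ago1 and Ago3, Argonautes that bind microRNAs without being known for efficient cleavage, showed no called difference. Ago1 lay at 37.8 to 57.7 CPM in control and at 37.0 to 58.3 CPM in cDKO, with a summed log2 change of -0.04 (95% interval -0.25 to 0.18). Ago3 lay at 1.98 to 5.42 CPM and 1.52 to 4.80 CPM, and its interval, from -0.61 to 0.46, was among the widest of the 10.

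Tnrc6a and Tnrc6b, the scaffold proteins that carry silencing from Argonaute to the deadenylases, were the most deeply sequenced with Ago2 and had the narrowest intervals. Tnrc6a lay at 226 to 327 CPM in control and at 214 to 338 CPM in cDKO, and Tnrc6b at 122 to 192 CPM and 134 to 193 CPM. Their summed log2 changes were 0.05 (95% interval -0.07 to 0.17) and -0.05 (-0.17 to 0.08). The Tnrc6a libraries separated at 60 min, with control at 233, 240.3 and 227 CPM and cDKO at 257, 256 and 256 CPM (log2 change 0.11, edgeR adjusted p = 0.244). Those of Tnrc6b separated at 180 min in the other direction, with control at 180.5, 177 and 192 CPM and cDKO at 161, 172 and 159 CPM (log2 change -0.18, adjusted p = 0.144). Counted over the 10 genes, libraries of the 2 genotypes did not overlap for 2 at 0 min, 2 at 60 min, 2 at 180 min and 1 at 540 min, against 32.8%, 37.4%, 36.3% and 36.6% of all genes.

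A half-life read from conversion rates assumes a steady abundance, so the end of the chase was also compared with its start within each genotype. The median absolute log2 change was 0.28 for the 10 genes and 0.21 for all genes in control, and 0.16 and 0.18 in cDKO. In control cells 3 of the 10 genes changed, against 16.2% of all genes tested. Ago2 rose by 0.30, on a log2 scale, (SE 0.10, adjusted p = 0.0476 by edgeR), from 134, 131 and 124 CPM at 0 min to 191, 158 and 142 CPM at 540 min. Tnrc6a fell by 0.27 (SE 0.07, adjusted p = 0.00925), from 265, 278 and 284 CPM to 247, 232 and 226 CPM. Tnrc6b fell by 0.30 (SE 0.07, adjusted p = 0.00926), from 174, 184 and 191 CPM to 153, 153 and 151 CPM. Libraries of the 2 times did not overlap for these 3 genes, and the share of all genes without such overlap was not computed. Without control replicate 3 none of them passed (adjusted p = 0.083 for Ago2, 0.154 for Tnrc6a and 0.134 for Tnrc6b), and Ago2 was also lost without control replicate 1 or 2 (0.197 and 0.0791), with all lines of a gene summed (0.0997) and with all 24 libraries in a shared fit (0.0668). Tnrc6a was lost with filtered reads as library size (0.0526), a scaling that turned 824 higher and 836 lower genes into 1304 and 522.

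In cDKO cells none of the 10 passed, and neither did most other genes, with 12 of 10235 called (0.117%) and 1137 (11.1%) at an unadjusted p under 0.05, where 2 of the 10 stood, Ago2 and Tnrc6b. Same-numbered cDKO libraries of different times deviated together (r 0.262 to 0.771), which this test leaves out. With the replicate number as a block 128 genes were called, none of them among the 10. Few calls here therefore do not show a steady abundance. Ago2 went from 168, 154 and 178 CPM to 149, 121 and 129 CPM, with an estimate of -0.36 (log2, SE 0.11, adjusted p = 0.332 by edgeR). Tnrc6b went from 193, 154 and 175 CPM to 142, 152 and 134 CPM (log2 change -0.32, adjusted p = 0.362). These 2 were called when all 24 libraries shared a fit (adjusted p = 0.0478 and 0.0396). Tnrc6a stood at 0.02 in cDKO and at -0.27 in control.

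The difference between the genotypes' changes over time was tested directly as an interaction. It called none of the 10651 genes tested by edgeR (0%), 557 (5.23%) being at an unadjusted p under 0.05 and 6 being called by DESeq2. Ago2 had the lowest p of the 10 genes, with an interaction of -0.66 (log2, SE 0.16, unadjusted p = 0.00109, edgeR adjusted p = 0.852). Dicer1 followed at -0.38 and Tnrc6a at 0.28, with adjusted p of 0.95 for both. Without control replicate 1 the Dicer1 value was -0.23. Dicer1 went from 57.9, 63.3 and 61.1 CPM at 0 min to 85.7, 64.4 and 66.0 CPM at 540 min in control, and from 68.0, 62.6 and 67.7 CPM to 59.0, 60.6 and 60.2 CPM in cDKO. For Ago2 and Dicer1 every control replicate number stood higher at 540 min than at 0 min and every cDKO number lower, a pattern seen in 2.54% of all genes. Same-numbered control libraries of different times hardly deviated together (r -0.026 to 0.139), so these data give little sign that a control number follows a culture.

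Conversion rates were lower in cDKO for the microRNA pathway, as they were library-wide. At 0 min all 10 genes had every cDKO library below every control library, against 83.1% of all genes with enough coverage. Enough coverage means at least 100 covered T positions in each library, which Xpo5 did not have. At 60 min this held for 8 of the 10 genes, at 180 min for 7 and at 540 min for 4, against 77.2%, 62.7% and 20.5%. For Dicer1 at 0 min the control libraries were at 1.87, 2.13 and 2.39% and the cDKO libraries at 0.823, 1.17 and 0.734%. For Ago2 they were at 1.60, 1.30 and 1.39% and at 0.693, 0.742 and 0.415%. Read relative to its own library, none of the 8 genes with enough conversions differed between genotypes at 0 min (0.318% of 8809 genes did by edgeR, and 714 genes, 8.11%, but none of the 8 had an unadjusted p under 0.05), with log2 estimates from -0.23 (Drosha) to 0.07 (Tnrc6b). With coverage alone as the offset all 8 were lower in cDKO. Xpo5 and Ago3 were not in that test, and Xpo5 had 9 conversions at 331 covered T positions in control at 0 min and 0 at 488 in cDKO, where a share of up to 0.753% remains possible (upper exact 95% binomial limit, which covers counting error only).

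**Figure D2:**
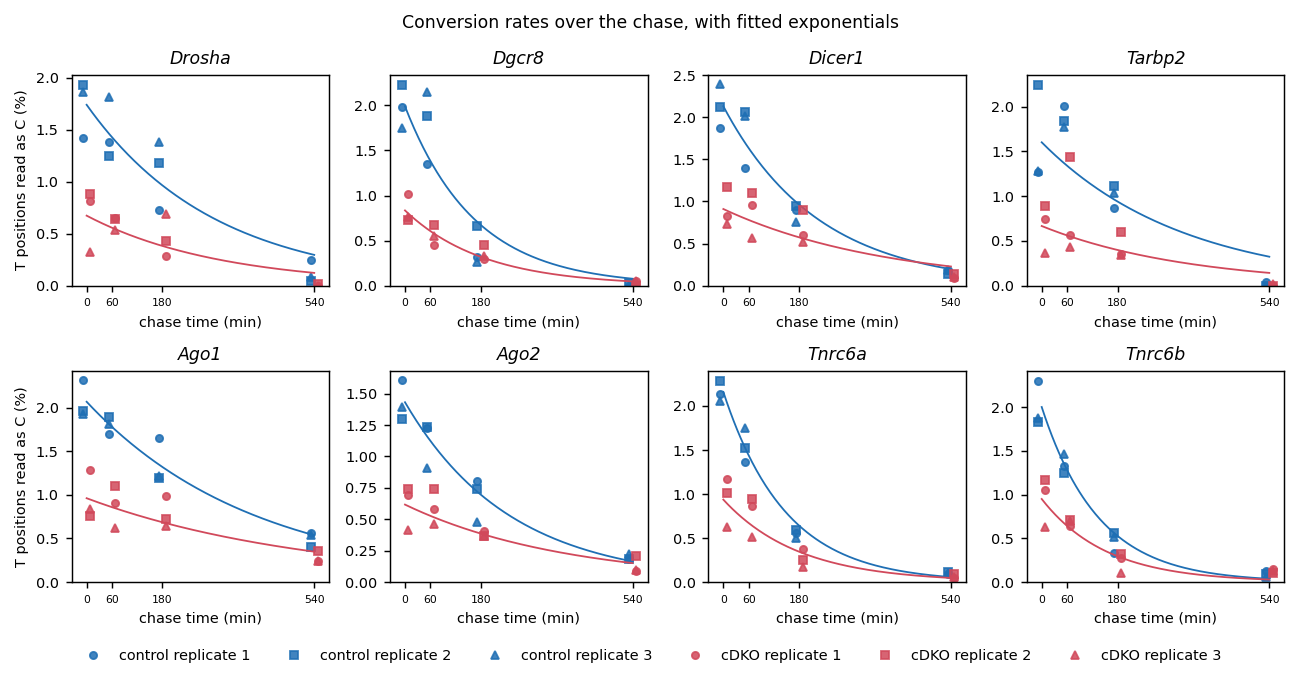
Conversion rate in each library, as the percentage of T positions read as C, against chase time in min for 8 genes (symbols as replicates 1 to 3, offset slightly by genotype), with the single exponential fitted to the 12 libraries of each genotype. Control starts higher than cDKO in every panel (Dicer1 1.87 to 2.39% against 0.734 to 1.17%) and at 540 min Ago1 holds 0.242 to 0.566% while the other genes shown are at 0.246% or less.

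How fast the label left each transcript was tested as the difference in slope of log conversions against chase hour, positive where cDKO lost label more slowly. None of the 9 genes with enough conversions passed by edgeR (0.13% of 9207 genes did) or DESeq2, 2 had an unadjusted p under 0.05 (17.2% of all genes), and their median difference was 0.06 log2 per h against 0.07 over all genes. The largest estimates were those of Dgcr8, at 0.35 log2 per h (SE 0.13, unadjusted p = 0.0077, edgeR adjusted p = 0.162), and Tnrc6b, at 0.18 (SE 0.06, unadjusted p = 0.0047, adjusted p = 0.139). This test took the 24 libraries as independent, although cDKO replicate 3 had the lowest library-wide rate of its genotype at every time. Its SE and p leave that out. With the replicate number as a block within each genotype, chosen after seeing the data, 59 genes were called, none of them among the 9. Few conversions remained at the last time point. Dgcr8 had 1 conversion in 11567 covered T positions in control and 4 in 11047 in cDKO at 540 min. Without the 540 min libraries the Tnrc6b estimate was 0.03, while that of Dgcr8 was 0.38, both with an adjusted p of 1.0.

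Half-lives were fitted as a single exponential to the conversion rates relative to 0 min. The SE of a fit takes the 12 libraries of a genotype as independent, although they come from 3 replicates. Replicate half-lives join libraries by number, and same-numbered control libraries of different times hardly deviated together in abundance (r -0.026 to 0.139). All 9 genes with coverage had a longer fitted half-life in cDKO, against 65.5% of all genes, and the count fell to 5 without cDKO replicate 3 (all genes 60.5%). It was 7 of 9 with a free intercept (all genes 81.7%) and 7 of 8 with each replicate's own 0 min rate (70.4%). With a floor rate of 0.0619% subtracted it was 7 of 9 (57.3%), with Drosha at -0.06 and Tarbp2 at -0.05 (log2). That floor is the mean cDKO rate at 540 min of short-lived genes. The GW182 pair had the shortest half-lives of the well-covered transcripts in the first fit, but not with a free intercept, where Dgcr8 (82.4 min) and Tarbp2 (101 min) were shorter in control than Tnrc6b (121 min) and Tnrc6a (124 min). The free-intercept fit uses only rates above 0. Dgcr8 and Tarbp2 each had 1 conversion in all at 540 min in control, so their last point there rests on 1 library. In the first fit Tnrc6b had a half-life of 93.5 min (SE 8.37) in control and 107 min (SE 20.6) in cDKO, and Tnrc6a 103 min (SE 7.56) and 125 min (SE 29.3). Dgcr8 followed at 115 min (SE 24.4) and 130 min (SE 18.4), and Ago1 stood at the slow end at 277 min (SE 26.0) and 369 min (SE 93.3). The median over the 3712 genes that met the study's bounds at 0 min was 224 min for control and 251 min for cDKO, against 152 and 192 min with a free intercept and 282 and 317 min without the 540 min libraries. With the floor rate subtracted it was 211 and 220 min over 3164 genes.

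In the first fit Dicer1 was the one gene of the 10 whose replicate half-lives did not overlap, and 12.3% of genes had every cDKO replicate longer than every control one. The control replicates gave 162, 178 and 134 min, and the cDKO replicates 290.2, 273 and 240 min, with fits of 157 min (SE 20.7) and 270 min (SE 72.2). An exact two-sided permutation test gave p = 0.1, the smallest that 3 against 3 allow, and 0.533 after adjustment over the 8 genes tested. The slope test put the same transcript at 0.07 log2 per h (adjusted p = 0.54). Which genes separated depended on the fit. With a free intercept Dicer1 stood at 146 and 170 min with overlapping replicates, while Dgcr8 (82.4 and 137 min) and Tnrc6b (121 and 193 min) separated. Libraries with a rate of 0 drop out of that fit, among them Dgcr8 libraries at 540 min. Without the 540 min libraries Dicer1 separated, as did Ago1 and Tnrc6a, each with an exact permutation p of 0.1. For Tnrc6a the highest control replicate was at 117.51 min and the lowest cDKO replicate at 117.52 min. Ago1 cDKO replicate 2 sat at the upper fitting bound of 10000 min. For the free-intercept fit and the fit without 540 min the share of all genes that separated was not computed. Of all genes 81.7% and 58.2% had a longer half-life in cDKO in these 2 fits.

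Ago2 fitted at 173 min (SE 19.3) and 265 min (SE 56.1), with replicates from 118 to 226 min and from 212 to 390 min, which overlapped. Drosha fitted at 211 and 220 min, but its cDKO replicates ran from 129 to 902 min. Tarbp2 fitted at 234 and 243 min over reads that could not be assigned to 1 of its 2 copies. Of the 9 genes, Dicer1, Dgcr8, Ago1 and Ago2 met the bounds the study set on the 0 min rates (mean above 0.8 and SD under 0.3 of the normalized rate), and the others are given outside them. Ago3, with 66 conversions in all, fitted at 37.0 min (SE 12.4) and 72.8 min (SE 42.6).

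**Figure D3:**
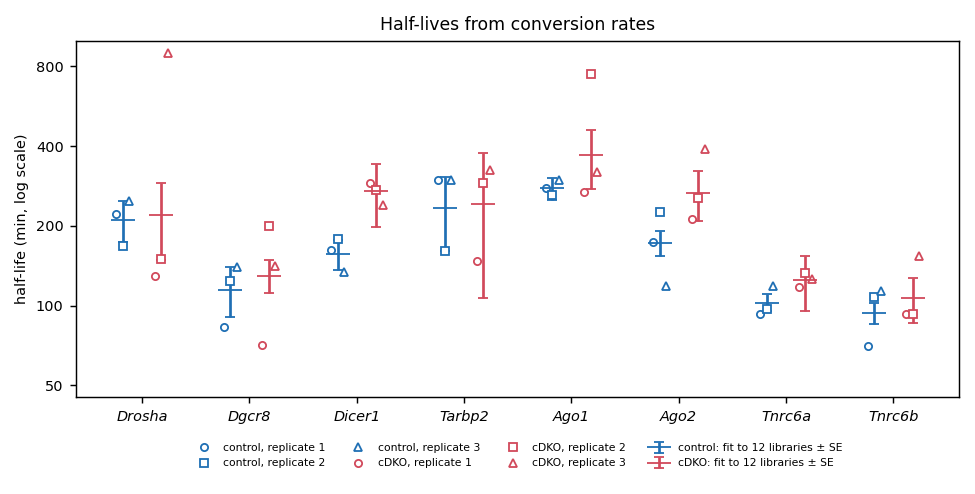
Half-lives in min on a log axis for 8 genes, with the fit to the 12 libraries of a genotype (bar, ± SE) and the fits to each replicate number (open symbols). Replicate values of Dicer1 lie between 134 and 178 min in control (blue) and between 240 and 290.2 min in cDKO (red), and those of the other genes overlap.

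Beyond the core, of 46 further genes in 4 lists, 45 were tested, and 10 were higher and 7 lower in cDKO on the summed reads, against 14.9% higher and 15.7% lower among all genes. With filtered reads as library size the split of all genes on the summed reads went from 1669 higher and 1764 lower to 1137 and 2505, around a median of -0.09. Beside their medians of 0.01 to 0.13 on the log2 scale the median of all genes tested was 0.00. In bulk libraries fewer cells of a type and less RNA per cell cannot be told apart.

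Among cofactors of primary processing and export, 3 of 11 rose and 3 fell. The adenosine deaminase Adar fell by 0.72 (edgeR adjusted p = 0.00087) and is on chromosome 3, and the scaffold attachment factor Safb fell by 0.35 (adjusted p = 0.0151). The terminal-loop binders Hnrnpa1 and Khsrp rose by 0.40 and 0.25 (adjusted p = 0.00237 and 0.0287), although 97.4% of Hnrnpa1 reads mapped to several places. Among Dicer partners and Argonaute-loading chaperones, 3 of 11 rose and 1 fell. Prkra, the paralog of Tarbp2 that also binds Dicer, fell by 0.39 (adjusted p = 0.012), opposite in sign to the Tarbp2 estimate. The chaperones that rose were Dnaja2, Hsp90ab1 and Hsp90aa1, by 0.33, 0.30 and 0.27, with 96.7% of Hsp90aa1 reads mapping to several places.

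The remaining Argonaute and GW182 genes were among the silencing effectors that fell. Ago4, the fourth Argonaute, lay at 4.07 to 12.2 CPM in control and 3.56 to 7.76 CPM in cDKO and fell by 0.68 (edgeR adjusted p = 0.0452). Tnrc6c, the third GW182 gene, lay at 115 to 171 CPM and 80.9 to 126 CPM and fell by 0.46 (SE 0.06, adjusted p = 0.00174). Neither difference from its relatives Ago1 to Ago3 or Tnrc6a and Tnrc6b was itself tested. Of the 12 silencing effectors tested, 1 rose, the decapping-associated helicase Ddx6 by 0.34, and the third to fall was the helicase Mov10, by 0.75, which is on chromosome 3. Trim71 had 0 reads.

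Of the 11 genes of microRNA tailing and turnover, 3 rose and none fell. Lin28a, which recruits uridylyltransferases to let-7 precursors, rose by 0.70 (SE 0.18, edgeR adjusted p = 0.0229) from 8.62 to 25.4 CPM in control to 20.1 to 39.7 CPM in cDKO. The mitochondrial exoribonuclease Pnpt1 rose by 0.44 and the histone-mRNA exonuclease Eri1 by 0.23 (adjusted p = 0.0389 and 0.0162). Lin28b, the paralog of Lin28a, lay at 1.49 to 10.5 CPM in control and 0 to 5.67 CPM in cDKO, with a summed estimate of -2.14 (SE 1.08, adjusted p = 0.176), and was called lower at 180 min (adjusted p = 0.0398). Dis3l2, the exonuclease that degrades uridylated precursors, stood at -0.31 (adjusted p = 0.101), and the uridylyltransferase Tut1 at 0.11 (adjusted p = 0.455).

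**Figure D4:**
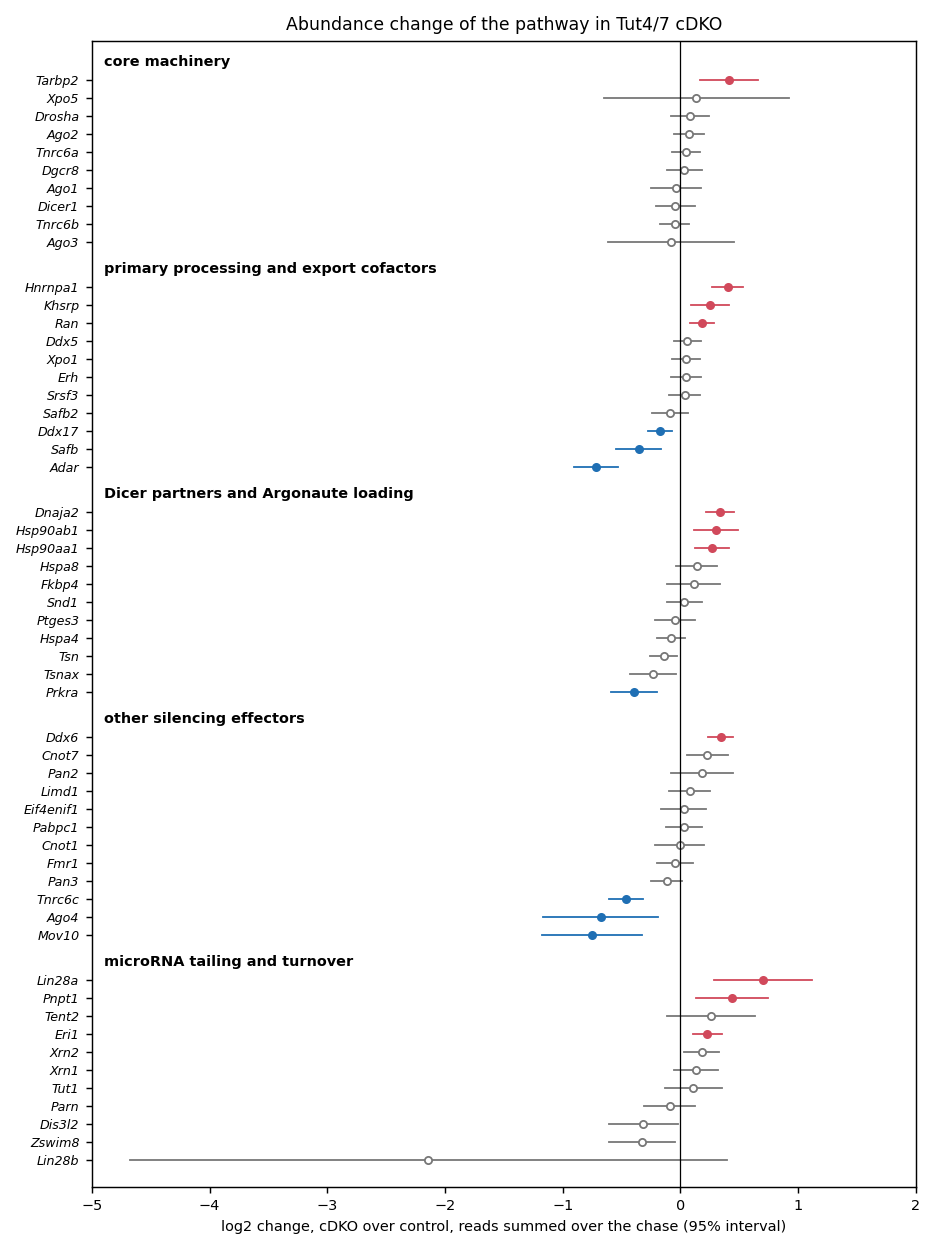
Log2 change in cDKO over control of the 10 core genes and 45 further pathway genes, on reads summed over the chase, with 95% intervals; filled red and blue symbols passed edgeR's test as higher and lower, and open grey symbols did not. The core genes other than Tarbp2 lie between -0.08 and 0.14, while Ago4 and Tnrc6c lie at -0.68 and -0.46.

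Markers of cell identity differed between the genotypes in the same libraries. The summed CPM of 10 progenitor and myeloid genes ran from 3361 to 4212 for control and from 1639 to 2540 for cDKO, with Elane, Kit, Ptprc and Spi1 lower and Csf2rb higher. The largest falls in mean CPM were those of Elane (1391 to 67.1) and Mpo (573 to 67.2). Mpo was not called (edgeR adjusted p = 0.114), nor were Cd34, Cebpa, Flt3 and Myb (log2 estimates 0.60, 0.38, 0.03 and -0.03). Of 7 erythroid genes, 2 were tested and both were higher, the summed level being 0.372 to 3.07 CPM in control and 1307 to 2091 CPM in cDKO, nearly all of it Hbb-bt, while Epor was at 0 in every library and Gata1 and Klf1 were too low to test. Mast and basophil genes summed to 15.8 to 34.5 CPM and 132 to 247 CPM, with Cpa3 and Gata2 higher of 4 tested and Fcer1a, Cma1 and Prss34 too low to test. Macrophage genes summed to 43.9 to 85.2 CPM and 176 to 286 CPM, with Adgre1 higher and Csf1r lower of 2 tested. C1qa, C1qb and Mrc1 were too low to test, at mean CPM of 0.03, 0.22 and 0.57 in control and 0 in cDKO. Megakaryocyte genes summed to 2.40 to 9.68 CPM and 7.32 to 23.7 CPM, with 1 of 3 tested higher and 1 lower, and lymphoid genes to at most 0.882 CPM in any library. Their part in the abundance and half-life differences above was not tested.

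Across the 24 libraries, the transcripts whose log2 CPM followed Ago2 most closely among 11203 other genes were 1110006O24Rik, Shoc2 and Picalm, with Pearson r of 0.709, 0.683 and 0.655. Those nearest to Dicer1 were Fbh1, 2700049A03Rik and Trim13, with r of 0.653, 0.638 and 0.637. The libraries share genotypes, chase times and depth, and these values are a description.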

How the data were processed

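T-to-C conversions were counted in 24 QuantSeq 3′ mRNA libraries. Reads were processed by the authors with SlamDunk 0.4.3, and the deposited tables list, per mm10 3′UTR line, read counts, the T-to-C conversion rate (a fraction), covered T positions, conversions, and CPM. The deposited CPM was divided by all filtered reads, whereas CPM here is per 1000000 3′UTR reads. Of 39419 lines, 99.2% matched a RefSeq symbol. Overlapping intervals of a gene were reduced to the longest. Counts were tested with edgeR 4.0.16 (TMM, quasi-likelihood, filterByExpr, Benjamini-Hochberg over all genes, threshold 0.05) and, as an alternative, DESeq2 1.42.0. Conversion counts were tested with log T coverage as offset in genes with at least 100 covered T positions per library and 50 conversions in all. Half-lives were fitted by least squares between 1 and 10000 min. Single values were tested by exact permutation. Scripts were tested on simulated data. An item of the marker lists is not reported here. The genes and lists were chosen with earlier results of these data known. All 10 genes were named, with at most 4 called genes per other list by size of change and the 3 genes nearest in pattern to Dicer1 and Ago2. Of the cDKO replicates, same-numbered libraries of different times deviated together (r 0.262 to 0.771). Same-numbered control libraries hardly did (r -0.026 to 0.139, against -0.152 to 0.078 for other numbers). Control and cDKO libraries of the same number and time did not deviate together (r -0.071 to 0.101). With so little shared deviation in control, these values cannot tell whether numbers paired the genotypes.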

Additional observations from a re-analysis of the deposited data

Results flagged for a closer look

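For Ago2 and Dicer1 every control replicate number was higher at 540 min than at 0 min and every cDKO number lower. Only the Ago2 rise in control passed its own test. Dicer1 passed in neither genotype, and its control differences were 27.8, 1.03 and 4.91 CPM in replicates 1, 2 and 3. The difference between the genotypes' changes (cDKO minus control) was -0.66 on the log2 scale for Ago2 and -0.38 for Dicer1, the latter -0.23 without control replicate 1. By edgeR's interaction test the adjusted p was 0.852 and 0.95, so neither passed over all genes, and for Ago2 it ranged down to 0.133 with the replicate number as a block within each genotype, an alternative chosen after seeing the data.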

How the results depend on the processing

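Ago2 at 0 min and Tarbp2 on summed reads were the calls between genotypes, and both depended on the processing. At 0 min the number of the 10 genes called went from 1 to 2 with DESeq2, with no filter on low counts and with all 24 libraries in one fit, and to 0 with the replicate block and with filtered reads as library size, and it ran from 0 to 2 when a replicate was left out. At 180 min it ran from 0 to 1 without a replicate, and at 540 min it was 1 with all 24 libraries in one fit. On summed reads it was 0 with filtered reads as library size and 0 to 1 without a replicate. For 540 against 0 min it ran from 0 to 2 without a replicate in control, and was 2 with all 24 libraries in one fit in cDKO. The replicate block changed no other call among the 10 genes. With coverage alone in the offset all 8 genes tested had lower 0 min rates in cDKO, Ago1 turning from 0.06 to -1.12 and Tnrc6b from 0.07 to -1.07, as that offset leaves out the library-wide difference. Genes with a longer half-life in cDKO numbered 5 to 9 without a replicate. They numbered 7 with a free intercept, with the floor rate subtracted and with each replicate's own 0 min rate. The library-wide log2 ratio of -1.16 at 0 min ran from -1.27 to -0.98. Of 1092 values of the 10 genes under alternatives, 90 changed sign with no call in either fit. Over all genes, calls at 0 min numbered 1360, 2292 with all 24 libraries and 633 to 2223 without a replicate, and at 60, 180 and 540 min and summed they fell to as few as 1296, 1155, 1182 and 2040 from 2046, 1915, 1977 and 3433. In control over time they went from 1660 to 1002 with all 24 libraries and 580 to 1198 without a replicate. In cDKO they went from 12 to 123 (DESeq2), 128 (replicate block), 438 (24 libraries), 3 (all lines of a gene summed), 4 (filtered reads) and 0 to 2 without a replicate. The interaction went from 0 to 6 with a block within each genotype. Slope differences went from 12 to 277 (DESeq2), 29 (all lines summed), 24 (replicate block), 59 (block within genotype), 23 (library-wide rate in the offset), 1 (no 540 min) and 3 to 30 without a replicate, and 0 min rates from 28 to 8 (all lines summed), 7456 (coverage alone) and 13 to 49. Except where named, the cause was not tested. Each of the 10 genes has a single interval, so no share between intervals could be computed. Depth limits Xpo5 and Ago3 most.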
